A study of Mus musculus with 69 samples.

Results

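p53KO–emiRFP cells sorted from 72 h mosaic gastruloids were compared with WT–emiRFP cells sorted from 72 h gastruloids, across all genes. The members are the 6 libraries that the labels give to these 2 populations, 3 replicates each, out of 69 libraries in the series. Gastruloids are aggregates of mouse embryonic stem (mES) cells that pass through stages of early development in culture. All cells were E14tg2A mES cells, and gene counts came from poly(A)-enriched, stranded RNA-seq of cells isolated by flow cytometry. The comparison asks how cells without p53 differed from cells with it at 72 h, when the p53KO cells were in a mosaic with WT cells.

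The WT–emiRFP clone carries an H2B–emiRFP670 reporter driven by the CAG promoter, and the p53KO–emiRFP line is 1 subclone of it with a homozygous insertion of 1 base in exon 4 of Trp53, selected with Nutlin-3a, an Mdm2 inhibitor, for 3 days. The partner in both kinds of gastruloid was a WT clone with an H2B–mCherry reporter driven by the EF1α promoter. WT–emiRFP cells came from WT + WT gastruloids seeded with 150 cells of each clone, and p53KO–emiRFP cells from WT + p53KO gastruloids seeded with 150 WT–mCherry and 25 p53KO–emiRFP cells. The Wnt pathway activator CHIR99021 was added at 3 µM from 48 to 72 h, so the 72 h gastruloids had been exposed to it and the 48 h gastruloids used further on had not. Since the 2 populations came from different gastruloids and the knockout is 1 clone, the effects of the genotype, of the clone and of the mosaic's composition cannot be told apart here.

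p53, encoded by Trp53, is a transcription factor that binds DNA as a tetramer at a response element made of a pair of adjoining half-sites. Its activated genes include its own inhibitor Mdm2, the cell cycle inhibitor Cdkn1a and genes for apoptosis, DNA repair and metabolic control. In mouse embryos around the time of gastrulation, p53 activity is known to rise in cells that are less fit than their neighbours, and cells without p53 outgrow them.

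The 12 libraries of 72 h gastruloids, which include the WT–mCherry partners of both mosaics, held 44049258 to 62464271 counts in genes, with 24647 to 26318 genes detected and 0.791 to 1.49% of counts from mitochondrial genes. Over 13436 genes, Pearson's r of log values was 0.9926 to 0.9974 between replicates and 0.9737 to 0.9807 between p53KO–emiRFP and WT–emiRFP libraries. The first principal component (64.4% of variance) placed the p53KO libraries at 42.26 to 45.14 and all 9 WT libraries at −19.33 to −9.1. The second (11.9%) placed WT–emiRFP cells at −22.43 to −13.65, apart from p53KO–emiRFP cells at −0.05 to 4.67 and from both WT–mCherry populations at 2.02 to 12.17. The WT–emiRFP libraries therefore stand apart from the other WT libraries in some genes, and differences against the WT–mCherry populations are given below where they alter a result. T, which encodes the primitive streak factor Brachyury, had 40750 to 44980 normalized counts in p53KO cells and 45500 to 58400 in WT–emiRFP cells, and the pluripotency factor gene Pou5f1 28510 to 31670 and 25300 to 33950, so both labelled populations expressed genes of the epiblast and streak. Foxd3, a marker of primed cells, was listed at 0 in all 6 libraries of p53KO–emiRFP and WT–emiRFP cells. Its exons overlap those of Gm23366 on the same strand, so the 0 cannot be read as absence of the transcript. The part of the overlap in this value was not tested.

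**Figure D1:**
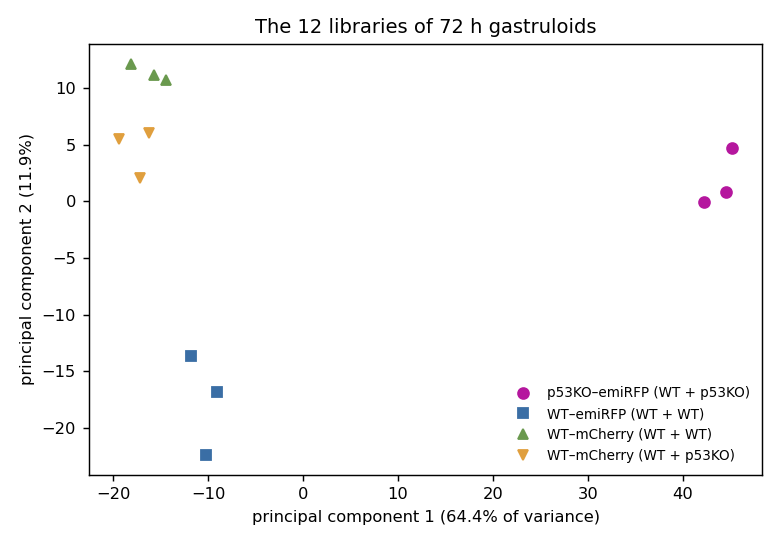
Positions of the 12 libraries of 72 h gastruloids on the first 2 principal components of log expression, 1 point per library, coloured by sorted population. The 3 p53KO–emiRFP libraries lie at 42.26 to 45.14 on the first component, which holds 64.4% of the variance, and the 3 WT–emiRFP libraries lie at −22.43 to −13.65 on the second, which holds 11.9%.

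Trp53 transcript, encoded on the forward strand at chr11:69580359-69591873 (GRCm38), was measured in each library as a check of the labels. It had 1684, 1916 and 1562 normalized counts in p53KO–emiRFP replicates 1 to 3, against 15650, 17300 and 14890 in WT–emiRFP cells. WT–mCherry cells had 15410 to 18530. All 3 knockout libraries were below every WT library, at 10.8% of the WT–emiRFP mean (log2 fold change −3.21, SE 0.088, edgeR adjusted p = 1.3e-12). An insertion of 1 base leaves the transcript countable, so these counts measure RNA and not protein.

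In p53KO–emiRFP cells 5147 of 17714 tested genes differed from WT–emiRFP cells at an adjusted p of 0.05 or less in edgeR's quasi-likelihood test (29.1% of those tested), of which 2373 were higher (13.4%) and 2774 lower (15.7%). With TMM normalization, 1916 were higher and 3040 lower. The lower genes changed by more. The median absolute log2 fold change of the genes called was 0.29 for those higher and 0.54 for those lower. An absolute log2 fold change of at least 1 was reached by 137 higher and 685 lower genes, of at least 2 by 13 and 224, and of at least 3 by 3 and 95. Over all tested genes the median was 0.009, which the normalization sets near 0 by its construction.

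**Figure D2:**
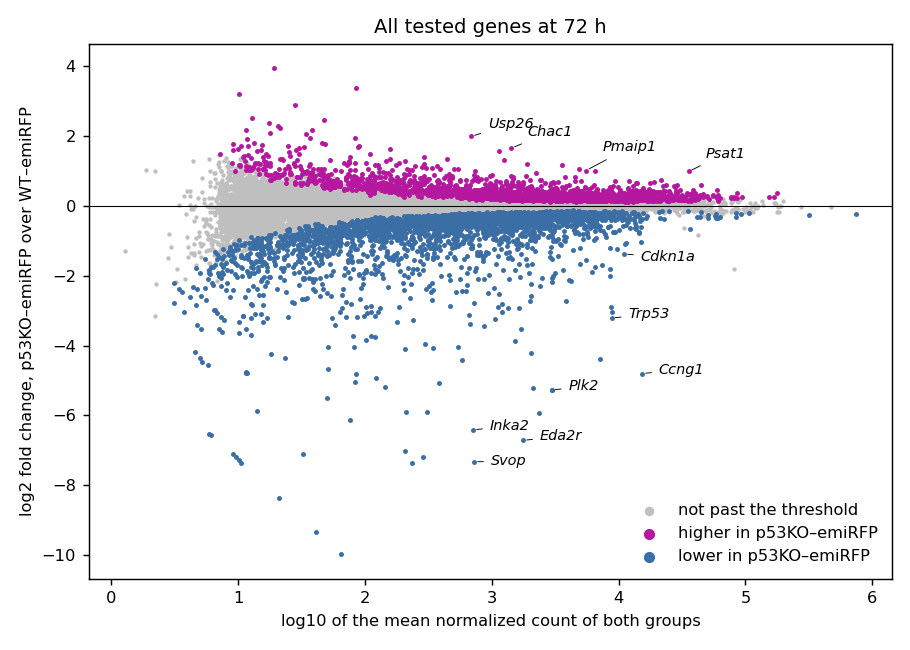
Log2 fold change of p53KO–emiRFP over WT–emiRFP cells against the log10 mean normalized count, 1 point per tested gene (17714), with genes past the threshold coloured by direction. Large changes lie below 0: 224 genes were lower by at least 2 on the log2 scale and 13 were higher by as much.

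The largest falls were in genes nearly silent in p53KO cells. Among genes that met the minimum level set for naming, Zfp750, which encodes a zinc finger factor of epidermal differentiation, had 3.31, 2.668 and 2.24 normalized counts in p53KO cells and 477.9, 441.6 and 491.9 in WT–emiRFP cells (log2 fold change −7.36, SE 0.22, edgeR adjusted p = 2.8e-12). Svop, the gene of a synaptic vesicle protein, had 5.517, 16.01 and 3.36 against 1553, 1353 and 1422 (−7.33, SE 0.21, edgeR adjusted p = 1.6e-12). Ano3, of the anoctamin family, had 1.103, 7.114 and 0 against 360.9, 340.3 and 530.1 (−7.00, SE 0.39, edgeR adjusted p = 4.1e-09). In each of these genes every p53KO library lay far below every WT library, the WT–mCherry libraries included. Inka2, an inhibitor of the kinase Pak4, had the smallest p of all genes, with 14.35, 17.79 and 16.8 normalized counts against 1469, 1334 and 1428 (−6.41, SE 0.10, edgeR adjusted p = 1.1e-14). Inpp5d, Dscaml1 and Ptprv had log2 fold changes of −5.92, −5.91 and −5.90. The exons of Svop, Ano3, Dscaml1 and Ptprv overlap those of a gene on the other strand (Usp30, Muc15, 4833428L15Rik and Gm10535). The same holds for Cdkn1a, Cpt1c, Sulf2, Trp73, Ccna2, Eomes, Jun, Mest and Tap1.

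Gm37795, an unconfirmed transcript at chr4:150068539-150070997 on the forward strand, was among the 3 largest falls of genes that met the minimum level, with 2.207, 7.114 and 1.12 normalized counts in p53KO cells and 535.2, 436.5 and 729.6 in WT–emiRFP cells (log2 fold change −7.19, SE 0.43, edgeR adjusted p = 7.7e-09). Its first bases overlap, on the same strand, the hairpin gene of the microRNA miR-34a (chr4:150068454-150068555), whose host transcription is a known target of p53. Poly(A) libraries do not measure the mature microRNA, and no level of it is given. Its sequence is shown because the transcript that fell begins at its hairpin. It lies at chr4:150068473-150068494 in RefSeq (GRCm38.p6), with the seed, bases 2 to 8, in capitals.
mmu-miR-34a-5p: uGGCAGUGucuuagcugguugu

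Among the genes that restrain p53 or arrest the cell cycle on its behalf, 13 of 15 were lower in p53KO cells. Of the rest 1 was higher and 1 was not called. The share called was 93.3%, against 29.1% of all tested genes, and the median log2 fold change was −1.80. Plk2, the gene of a polo-like kinase, had 151.2, 170.7 and 123.2 normalized counts in p53KO cells against 6130, 5614 and 5622 in WT–emiRFP cells (log2 fold change −5.27, SE 0.091, edgeR adjusted p = 1.3e-14). Ccng1, which encodes cyclin G1, a partner of Mdm2 and a phosphatase, had 924.7, 1197 and 1063 against 26760, 28740 and 33310 (−4.80, SE 0.10, edgeR adjusted p = 8.9e-14). Both genes were under 4% of the WT–emiRFP mean (2.56 and 3.59%), and no p53KO library came near a WT library. The antiproliferative gene Btg2 and Psrc1, a spindle protein gene, fell by 3.51 and 3.04 on the log2 scale.

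The best known targets kept much more of their transcript. Cdkn1a, the gene of the p21 inhibitor of cyclin-dependent kinases, had 6485, 5817 and 6102 normalized counts in p53KO cells and 16910, 15440 and 15440 in WT–emiRFP cells, or 38.5% of the WT–emiRFP mean (log2 fold change −1.38, SE 0.056, edgeR adjusted p = 9.9e-11). Mdm2, the ubiquitin ligase that degrades p53, had 2681, 2611 and 2491 against 9822, 9170 and 9913, or 26.9% (−1.89, SE 0.055, edgeR adjusted p = 2.2e-12). The groups were well separated for both genes, and much transcript remained without p53. Cop1, another ubiquitin ligase for p53, was the member that was higher (log2 fold change 0.26, edgeR adjusted p = 0.0027). Plk3 had 595.8 to 700.7 normalized counts in p53KO cells and 684.9 to 701.9 in WT–emiRFP cells, so the groups overlapped (−0.10, edgeR adjusted p = 0.44).

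**Figure D3:**
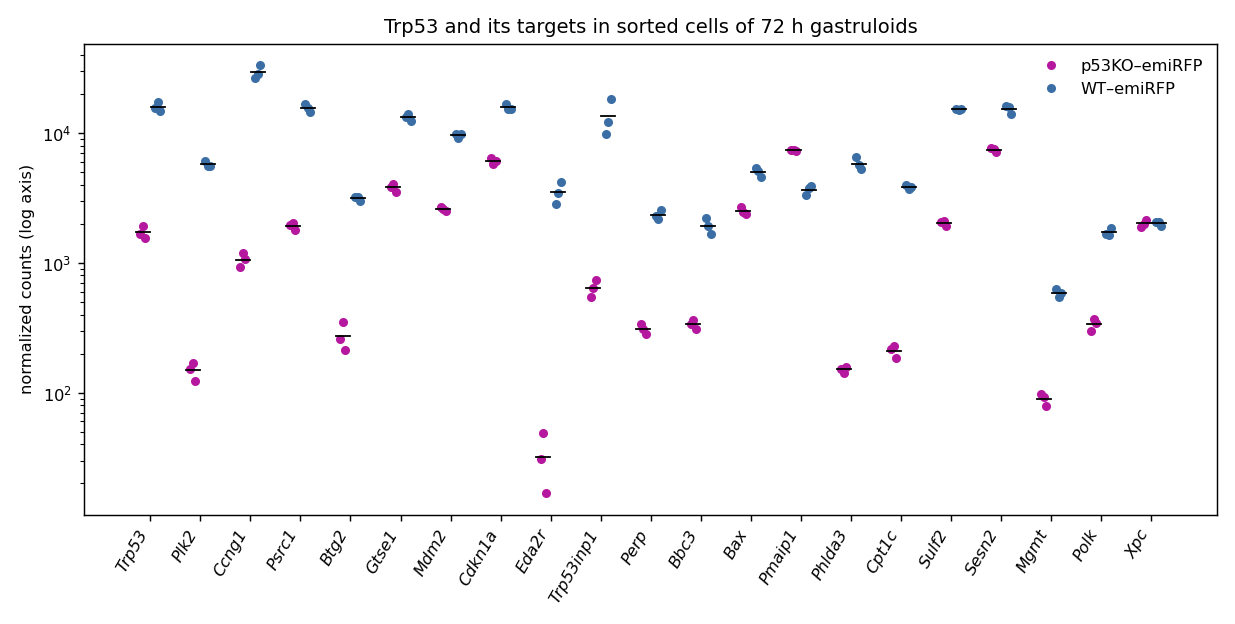
Normalized counts of Trp53 and 20 genes from the p53 target lists on a log axis, 1 point per library, p53KO–emiRFP and WT–emiRFP side by side. Plk2, Ccng1, Eda2r and Phlda3 lie at under 4% of the WT–emiRFP mean in p53KO cells, Cdkn1a, Sesn2 and Bax at 38.5 to 49.8%, Xpc overlaps between groups, and Pmaip1 alone is higher in p53KO cells.

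In the cell death list 13 of 16 genes were lower, 2 were higher and 1 was not called (93.8% called, against 29.1% of all tested genes, median −1.63). The death receptor gene Eda2r, which binds ectodysplasin A2, had 30.9, 48.91 and 16.8 normalized counts against 2844, 3442 and 4239 in WT–emiRFP cells, under 1% of the WT–emiRFP mean (log2 fold change −6.71, SE 0.21, edgeR adjusted p = 4.2e-12). Trp53inp1, the gene of a stress-induced nuclear protein, and Perp, that of a membrane protein of desmosomes, had log2 fold changes of −4.40 and −2.92. Of the BH3-only activators of mitochondrial apoptosis, Bbc3 (Puma) had 338.8, 365.5 and 309.1 against 2228, 1929 and 1668 (−2.52, SE 0.13, edgeR adjusted p = 1.2e-09). Bax, the pore-forming effector, was lower by a smaller factor, at 49.8% of the WT–emiRFP mean (−1.01, edgeR adjusted p = 1.6e-07).

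Pmaip1 (Noxa), another BH3-only gene of the same list, went the other way. It had 7412, 7442 and 7325 normalized counts in p53KO cells and 3324, 3764 and 3882 in WT–emiRFP cells, with every p53KO library above every WT–emiRFP library (log2 fold change 1.02, SE 0.068, edgeR adjusted p = 3.2e-08). The WT–mCherry populations lay between them at 5048 to 6029, and the log2 fold change against them was 0.32 beside WT cells and 0.44 beside p53KO cells. Its size therefore depended on the control population by a factor over 1.5. Tnfrsf1b, the gene of a TNF receptor, was also higher (0.39, edgeR adjusted p = 0.0012). Bid had 2943 to 3234 against 3177 to 3355 and was not called (edgeR adjusted p = 0.35). In the wider Bcl2 family, outside these targets, 2 of 11 tested genes were higher and 2 lower (36.4% called, against 29.1% of all tested genes) with a median of −0.03, and of −0.01 and 0.06 against the WT–mCherry populations beside WT and p53KO cells. The survival gene Mcl1 had 9014 to 9677 normalized counts in p53KO cells and 9389 to 10040 in WT–emiRFP cells (log2 fold change −0.03, edgeR adjusted p = 0.78).

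Of 9 tested genes for DNA repair and nucleotide supply, 5 were lower and 4 were not called (55.6% called, against 29.1% of all tested genes, median −0.75). Mgmt, which removes alkyl groups from guanine, had 98.21, 92.48 and 79.52 normalized counts against 627.9, 549 and 582.4 (log2 fold change −2.70, SE 0.11, edgeR adjusted p = 6.8e-11). Polk, the gene of a polymerase that copies damaged DNA, and the repair endonuclease gene Ercc5 fell by 2.35 and 1.91. Of the uncalled genes, Xpc, which recognises damage for excision repair, had overlapping groups, with 1900 to 2154 in p53KO cells and 1925 to 2078 in WT–emiRFP cells (−0.004, edgeR adjusted p = 0.97). Fancc of the Fanconi anaemia pathway had groups that did not overlap, with 763.6 to 840 against 657.2 to 728.6 (0.18, edgeR adjusted p = 0.07, and 0.032 with the replicate block).

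Of 17 genes for metabolism and growth control, 10 were lower, 2 higher and 5 not called (70.6% called, against 29.1% of all tested genes, median −1.02). With the replicate block 10 were lower and 4 higher (82.4% called, against 39% of all genes). Against the WT–mCherry populations 9 were lower and 2 higher, with medians of −0.56 beside WT cells and −0.84 beside p53KO cells. Phlda3, an inhibitor of the kinase Akt, had 152.3, 142.3 and 159 normalized counts against 6500, 5727 and 5256 (log2 fold change −5.27, SE 0.17, edgeR adjusted p = 6.1e-12). Cpt1c, of the carnitine palmitoyltransferase family, was at 5.43% of the WT–emiRFP mean, and Ddit4l, an inhibitor of mTORC1 signalling, and the adenylate kinase gene Ak1 were at 9.28 and 13.3%. Sulf2, which trims sulphate groups from heparan sulphate outside the cell, had 2082, 2116 and 1942 against 15350, 15040 and 15340 (−2.90, SE 0.053, edgeR adjusted p = 2.4e-14). Zfp365, which encodes a zinc finger protein and is in none of the lists, was among the 5 genes with the smallest p beside Inka2, Plk2, Sulf2 and Cpt1c, and had 92.69, 132.5 and 101.9 against 4231, 3924 and 4102 (−5.21, SE 0.098, edgeR adjusted p = 2.4e-14). Tsc2, a restraint on mTORC1 signalling that is listed as a p53 target in other tissues, had a log2 fold change of 0.02 (edgeR adjusted p = 0.85).

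Promoter sequences were searched for the p53 response element, since the target lists fell together. RefSeq promoters of 300 bases (250 before and 50 after an annotated start, GRCm38.p6), of which 4163 genes had more than 1, were read on both strands for a 20-base element of 2 adjoining half-sites of 10 bases, with the central C and G of each half-site exact and up to 2 other mismatches. A match was found in 106 of 27025 genes with a promoter in the table (0.392%) and in 54 of the 12315 of them that were tested (0.438%). The share was 1.2% of the 2075 lower genes with a promoter in the table, 2.6% of the 462 lower by at least 1 on the log2 scale and 0.219% of the 1828 higher genes. Of 46 listed p53 targets with a promoter, 5 held a match (10.9%). A match is a string of letters and not a measured site, and nothing outside these windows was searched. Of the 10 largest falls, 5 had a promoter in the table and 0 held a match. The 5 matches in listed targets are shown, on the gene's strand, with the element in capitals and 20 bases on either side, or the element alone for Gtse1, where it spans the annotated start. The windows of Gtse1, Trp73 and Rps27l are at starts inside the genes as GENCODE gives them (chr15:85859745-85876573, chr4:154056253-154140208 and chr9:66946086-66949516). They are at chr17:29090908-29090967 for Cdkn1a (forward strand, 1 mismatch), chr11:40755442-40755501 for Ccng1 (reverse strand, 1 mismatch), chr15:85859945-85859964 for Gtse1 (forward strand, 1 mismatch), chr4:154097200-154097259 for Trp73 (reverse strand, 2 mismatches) and chr9:66946276-66946335 for Rps27l (forward strand, 1 mismatch).
Cdkn1a: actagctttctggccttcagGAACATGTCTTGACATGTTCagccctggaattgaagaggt
Ccng1: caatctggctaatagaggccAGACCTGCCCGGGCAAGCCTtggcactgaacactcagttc
Gtse1: GAGCAAGTTGGGGCTTGCCT
Trp73: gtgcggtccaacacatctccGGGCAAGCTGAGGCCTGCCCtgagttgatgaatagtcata
Rps27l: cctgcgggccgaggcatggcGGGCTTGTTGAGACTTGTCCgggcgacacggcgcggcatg
These 5 genes had log2 fold changes of −1.38, −4.80, −1.80, −1.84 and −0.75 in the same order.

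Among genes of the p53 family and its regulators, 3 of 15 were higher, 5 lower and 7 not called (53.3% called, against 29.1% of all tested genes), with a median of −0.08, and of −0.13 and 0.06 against the WT–mCherry populations beside WT and p53KO cells. Trp73, the gene of the p53 relative p73, is also a member of the list of feedback and arrest targets. It had 632.3, 731.9 and 621.6 normalized counts against 2371, 2484 and 2282 (log2 fold change −1.84, SE 0.070, edgeR adjusted p = 4.2e-11). Mdm4, the partner of Mdm2, was at 51.3% of the WT–emiRFP mean (−0.96, edgeR adjusted p = 4.8e-07). Trp63 was near the detection limit at 10.67 to 22.9 in both groups. Cdkn2a, whose p19Arf product inhibits Mdm2, had 491, 405.5 and 409.9 against 629.1, 664.4 and 595.5 (−0.53, edgeR adjusted p = 0.0015), but WT–mCherry cells had 263 to 349.9, so the direction turned against those controls (0.47 beside WT and 0.56 beside p53KO cells).

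Of 26 genes of the G1/S transition and DNA replication 16 were higher, 3 lower and 7 not called (73.1% called, against 29.1% of all tested genes). The median log2 fold change was 0.20, against 0.009 over all genes. The increases were small. Ccne1, the gene of cyclin E1, had 10580, 10350 and 9522 normalized counts against 6803, 7516 and 6488 (0.55, SE 0.060, edgeR adjusted p = 7.6e-06). The 3 that were lower were the cyclin gene Ccnd2 and a pair of inhibitors of this transition. Rb1, the retinoblastoma gene, had 215.2, 221.4 and 218.4 against 881.5, 1008 and 1259, or 20.8% of the WT–emiRFP mean (−2.27, SE 0.12, edgeR adjusted p = 1.4e-09), although its exons overlap Lpar6 and Rcbtb2 on the other strand. The p15 inhibitor gene Cdkn2b had 70.62, 66.69 and 48.16 against 175.6, 194.5 and 158.1 (−1.50, SE 0.15, edgeR adjusted p = 2.2e-06). Against WT–mCherry cells beside WT cells, where 14.4% of all genes were higher and 15.1% lower, 10 G1/S genes were higher and 2 lower, and against those beside p53KO cells, where these shares were 15 and 16.3%, 15 were higher and 3 lower.

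For mitotic genes the control mattered more. In the G2/M list 9 of 21 were higher and 1 lower against WT–emiRFP cells (47.6% called, against 29.1% of all tested genes, median 0.15). Against either WT–mCherry population 3 were higher (14.3%), where 14.4 and 15% of all genes were (medians 0.06 and 0.08). Cyclin A2 (Ccna2) had 13750, 13170 and 13540 normalized counts against 10140, 10970 and 10150 in WT–emiRFP cells (log2 fold change 0.37, edgeR adjusted p = 3e-05) and 10740 to 11520 in WT–mCherry cells. Top2a, the topoisomerase of chromosome segregation, had 33170 to 36050 against 27750 to 29450 (0.27, edgeR adjusted p = 0.0043), while WT–mCherry cells at 31290 to 36490 overlapped the p53KO range (edgeR adjusted p = 0.69 and 0.75).

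Genes of ribosome biogenesis and Myc were higher in 15 of 23 cases and lower in 0 (65.2% called, against 29.1% of all tested genes, median 0.24). Myc itself had 3152, 3368 and 3092 normalized counts against 2001, 2184 and 1869 (log2 fold change 0.67, SE 0.089, edgeR adjusted p = 5.5e-05), above all WT libraries, WT–mCherry included (1873 to 2478). Odc1, the polyamine synthesis gene activated by Myc, and Bop1, a factor of ribosome assembly, had log2 fold changes of 0.46 and 0.45, and of 0.21 to 0.30 against WT–mCherry cells. Against the WT–mCherry populations beside WT and p53KO cells 9 and 10 members were higher and 0 lower, where 14.4 and 15% of all genes were higher. The medians were 0.09 and 0.14, so the median was under 0.15 with those controls.

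The integrated stress response is the programme by which the factor Atf4 raises amino acid synthesis and transport. Of 12 listed genes 9 were higher in p53KO cells, 1 was lower and 2 were not called (83.3% called, against 29.1% of all tested genes, median 0.63). Against either WT–mCherry population 10 were higher, where 14.4 and 15% of all genes were beside WT and p53KO cells. Chac1, which degrades glutathione, had 2210, 2311 and 1984 normalized counts against 693.7, 791.1 and 575.9, the second largest rise among genes that met the minimum level (log2 fold change 1.66, SE 0.10, edgeR adjusted p = 9.3e-09). Trib3, a pseudokinase gene induced by Atf4, had 2705, 2722 and 2419 against 1247, 1214 and 979.4 (1.19, SE 0.094, edgeR adjusted p = 2.3e-07). The p53KO libraries lay above every WT library in both genes. Psat1, of serine synthesis, had 47670, 48010 and 46800 against 23620, 25690 and 22480 (0.99, SE 0.053, edgeR adjusted p = 2.6e-09), and Phgdh, of the same pathway, had a log2 fold change of 0.70. Atf4 itself was higher by less (0.30, edgeR adjusted p = 0.0043), and by 0.69 and 0.52 against the WT–mCherry populations. Sesn2, which is a target of both Atf4 and p53, was the member that was lower, at 48.3% of the WT–emiRFP mean (−1.05, edgeR adjusted p = 1e-08).

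Against WT–mCherry cells from their own mosaic, p53KO cells differed less in Chac1 and Trib3. WT–mCherry cells beside p53KO cells had 1078 to 1192 normalized counts of Chac1, and those beside WT cells 711.1 to 798.9. The log2 fold change was 0.93 against the former and 1.501 against the latter, and for Trib3 0.69 and 1.11.

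**Figure D4:**
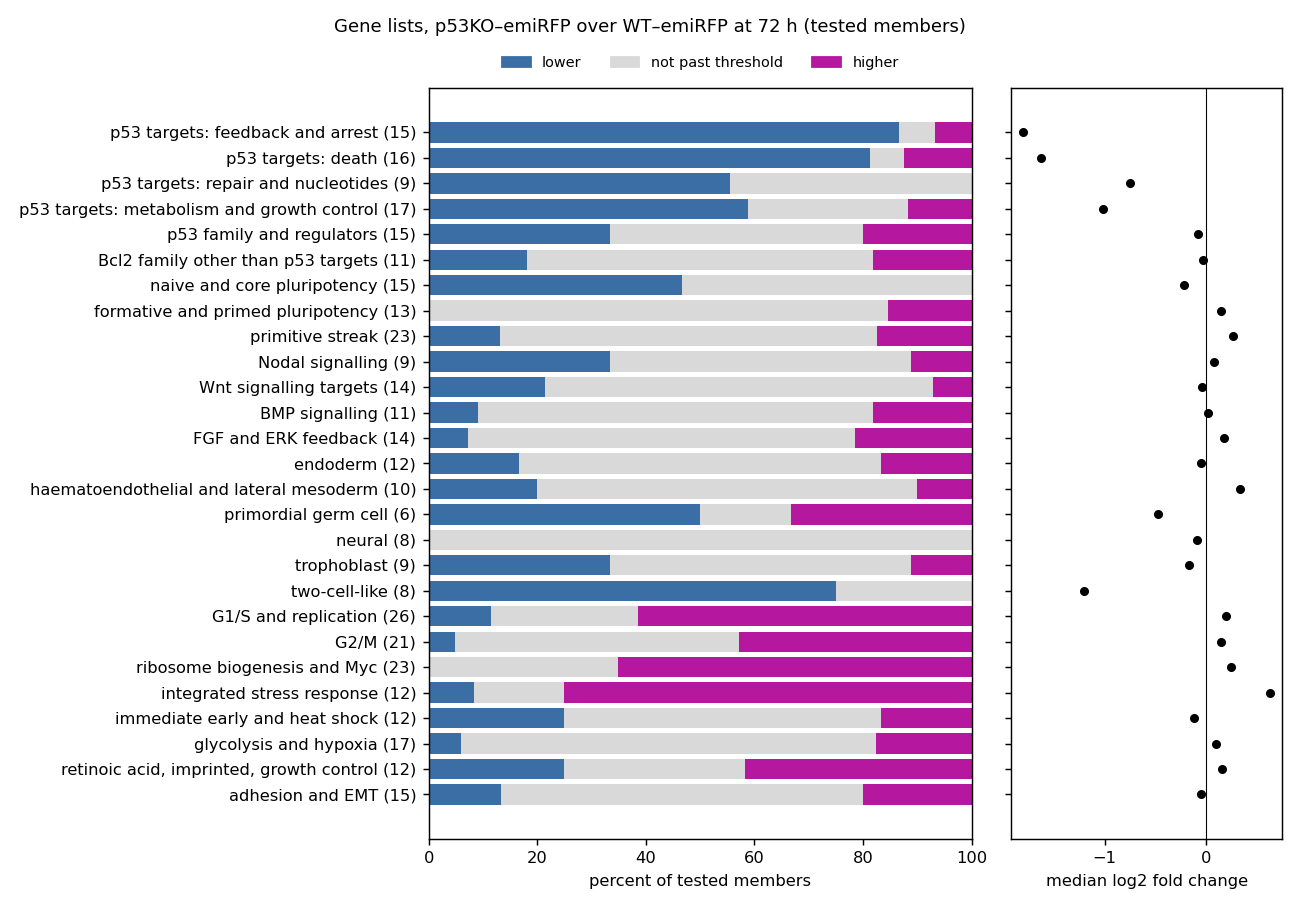
For each gene list, the percentage of tested members lower, not past the threshold or higher in p53KO–emiRFP cells (left, with the number tested in brackets) and the median log2 fold change (right). The 4 lists of p53 targets have medians of −1.80 to −0.75, the two-cell-like list −1.20 and the integrated stress response 0.63, and most lists of developmental genes lie between −0.3 and 0.3.

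Among genes of naive and core pluripotency 7 of 15 were lower, 0 higher and 8 not called (46.7% called, against 29.1% of all tested genes, median −0.22). Esrrb, a nuclear receptor of the naive network, had 3291, 3288 and 3610 normalized counts against 4738, 5319 and 4983 (log2 fold change −0.56, SE 0.063, edgeR adjusted p = 9.3e-06). Tbx3 and Prdm14, transcription factors of the same network, fell by 0.81 and 1.01. Nanog had 9838 to 11230 against 10790 to 12380 and Pou5f1 28510 to 31670 against 25300 to 33950, with overlapping groups (edgeR adjusted p = 0.24 and 0.79). Against WT–mCherry cells 12 members were lower beside WT cells (median −0.83) and 9 beside p53KO cells (−0.36), where 15.1 and 16.3% of all genes were lower. The log2 fold changes of Esrrb and Prdm14 against WT–mCherry cells beside WT cells were −1.13 and −1.78.

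Of 13 tested formative genes 2 were higher (15.4%, against 13.4% of all tested genes) and 0 lower. The de novo DNA methyltransferase gene Dnmt3b had 54060, 56900 and 51500 normalized counts against 35770, 39500 and 32080 (log2 fold change 0.60, SE 0.077, edgeR adjusted p = 4.1e-05), and Dnmt3a had a log2 fold change of 0.41. They were the members that were higher. With the replicate block, which called 39% of all genes in either direction (19.6% higher), 4 were higher (30.8%). Against the WT–mCherry populations beside WT and p53KO cells 7 and 6 were higher, where 14.4 and 15% of all genes were, and 0 and 1 lower.

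In the primitive streak list 4 of 23 genes were higher, 3 lower and 16 not called, so that 30.4% were called against 29.1% of all tested genes. With the replicate block 10 were higher and 6 lower, or 69.6% called against 39% of all genes. Eomes, a T-box factor of the anterior streak, had 2604, 2603 and 2061 normalized counts against 1585, 1558 and 846.3 (log2 fold change 0.87, SE 0.20, edgeR adjusted p = 0.0041). Cdx4, a caudal homeobox gene, had 274.8, 256.1 and 421.1 against 141.4, 126.6 and 195.2 (1.03, SE 0.26, edgeR adjusted p = 0.0074). Mesp1, a gene of nascent mesoderm, had 29.79, 19.56 and 19.04 against 6.096, 9.116 and 6.544 (1.61, edgeR adjusted p = 0.0088). In these 3 genes no p53KO library overlapped the WT–emiRFP libraries. The Wnt ligand gene Wnt3 and the segmentation gene Mesp2 were lower, with 1290, 1401 and 1189 against 2501, 2480 and 2053 for Wnt3 (−0.86, SE 0.088, edgeR adjusted p = 3.6e-06) and a log2 fold change of −1.24 for Mesp2. T had 44980, 40750 and 42830 against 58400, 45500 and 51590, not called without the block (−0.27, edgeR adjusted p = 0.059) and called with it (0.0043). Against the WT–mCherry populations beside WT and p53KO cells 9 and 11 members were higher and 3 lower in each. Of all genes 14.4 and 15% were higher and 15.1 and 16.3% lower against these controls. Beside WT cells, Cdx4 was not called (0.54, edgeR adjusted p = 0.12), Eomes had 1.34 and Wnt3 −0.48.

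In the Nodal pathway 3 of 9 tested genes were lower and 1 higher, or 44.4% called against 29.1% of all tested genes. Nodal, the TGFβ family ligand of the streak, had 4576, 4439 and 3925 normalized counts against 7346, 6982 and 5509 (log2 fold change −0.62, SE 0.11, edgeR adjusted p = 0.00073), and its inhibitor gene Lefty1 a log2 fold change of −0.66. Against the WT–mCherry populations Lefty1 was not called (−0.17 and −0.30, edgeR adjusted p = 0.36 and 0.1). Among Wnt targets 3 of 14 were lower and 1 higher (28.6% called). The Wnt inhibitors Rnf43 and Notum were lower by 0.96 and 0.69 on the log2 scale (edgeR adjusted p = 9.7e-05 and 3.3e-05). Axin2, a common reporter of Wnt activity, had 8073 to 8352 against 7476 to 8533 (0.07, edgeR adjusted p = 0.49). Of 11 BMP genes 2 were higher and 1 lower (27.3%), and with the replicate block 2 and 2 (36.4%, against 39% of all genes). Of 14 genes of FGF signalling and its feedback 3 were higher and 1 lower (28.6%), and with the replicate block 7 and 2 (64.3%, against 39% of all genes). Against the WT–mCherry populations 7 FGF genes were higher and 2 lower beside WT cells, where 14.4% of all genes were higher and 15.1% lower, and 6 and 1 beside p53KO cells, where these shares were 15 and 16.3%. Spry4, a feedback inhibitor, led with 2359, 2508 and 2665 against 1372, 1587 and 1548 (0.74, SE 0.067, edgeR adjusted p = 1e-06).

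Lists that mark other lineages varied in their share of called members. Among endoderm genes 2 of 12 were higher and 2 lower (33.3% called, against 29.1% of all tested genes). With the replicate block 2 were higher and 4 lower (50% called, against 39% of all genes). Gata4, an endoderm and heart factor gene, was 1 of those lower (log2 fold change −0.35, edgeR adjusted p = 0.0036). The call was lost in the fit of all 69 libraries (edgeR adjusted p = 0.343), and the direction of Gata4 turned against the WT–mCherry populations (0.38 and 0.11). Sox17, which defines the lineage, had 9.931 to 11.56 normalized counts in p53KO cells against 13.41 to 22.9 in WT–emiRFP cells. Of 8 tested neural genes 0 were called, and 1 with the replicate block (Zic1, adjusted p = 0.037). The neural median was −0.09, and −0.38 and −0.29 against the WT–mCherry populations beside WT and p53KO cells, with 1 gene higher and 1 lower in each. Of 9 tested trophoblast genes 1 was higher and 3 lower (44.4% called). The summed level of the neural list was 937.5 to 1113 against 1112 to 1135, of the trophoblast list 3042 to 3286 against 3049 to 3530 and of the haematoendothelial list 1860 to 1913 against 2276 to 2289. In the last list 1 of 10 tested genes was higher, 2 were lower and 7 were not called (30% called), with a median of 0.33, and of 0.21 without WT–emiRFP replicate 1. Against either WT–mCherry population 3 were higher and 3 lower. The erythroid factor gene Gata1 was the member that was higher, with 38.62, 28.46 and 34.72 normalized counts against 17.07, 20.26 and 16.36 (log2 fold change 0.90, SE 0.25, edgeR adjusted p = 0.014), a call lost without p53KO replicate 1 (adjusted p = 0.0588) and in DESeq2 (0.0538). Tek, the gene of the angiopoietin receptor Tie2, had 19.86, 20.45 and 19.04 against 146.3, 187.4 and 193 (log2 fold change −3.14, SE 0.18, edgeR adjusted p = 7.1e-09), while Kdr, Etv2 and Tal1, which define the lineage, had overlapping groups (edgeR adjusted p = 0.13 to 0.5). Among primordial germ cell genes 2 of 6 were higher and 3 lower (83.3% called), and against WT–mCherry cells beside p53KO cells 2 were higher and 1 lower. Dppa3, a maternal and germ cell gene, had 745.9, 617.1 and 533.1 against 260.9, 242.1 and 248.7 (1.34, SE 0.13, edgeR adjusted p = 2.4e-06), whereas the specification genes Prdm1 and Tfap2c had −0.56 and −0.50. Tfap2c was not called against WT–mCherry cells beside p53KO cells (−0.27, edgeR adjusted p = 0.06). In bulk RNA, fewer cells of a type and less RNA per cell cannot be told apart.

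Genes of the two-cell-like state, a rare state of mES cells, were lower in 6 of 8 tested cases and higher in 0, at low levels. The share called was 75%, against 29.1% of all tested genes, and the median was −1.20. With the replicate block, and against either WT–mCherry population, all 8 were lower, with medians of −1.84 and −1.98 against the latter beside WT and p53KO cells. Of all genes 19.3% were lower with the block, and 15.1 and 16.3% against these populations. Zscan4c had 49.66, 60.47 and 29.12 normalized counts against 119.5, 154 and 144 (log2 fold change −1.56, SE 0.25, edgeR adjusted p = 0.00026), and WT–mCherry cells had 167.3 to 292.3. The Zscan4 genes are near-identical copies, so reads between them are uncertain.

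In other lists, 3 of 17 genes of glycolysis and hypoxia were higher and 1 lower (23.5% called, below the 29.1% of all tested genes), and 6 and 1 with the replicate block (41.2% against 39%). Against either WT–mCherry population 1 was higher and 0 lower. Vegfa, the vascular growth factor gene, had 1627, 1570 and 1532 normalized counts against 1089, 1026 and 916.1 (log2 fold change 0.64, SE 0.086, edgeR adjusted p = 6.1e-05). Gapdh had 257900 to 281900 against 248400 to 294800. Among adhesion genes 3 of 15 were higher and 2 lower (33.3% called). The tight junction gene Cldn4 had 1139, 1234 and 1120 against 2851, 2461 and 2570 (−1.17, SE 0.089, edgeR adjusted p = 1.3e-07). The mesenchymal filament gene Vim had a log2 fold change of −0.76, and of −0.46 against WT–mCherry cells beside p53KO cells. Of 12 genes that mark dissociation stress 2 were higher and 3 lower (41.7% called), and with the replicate block 2 and 5 (58.3%, against 39% of all genes). Jun was lower with 270.3, 356.6 and 267.7 against 1481, 1579 and 753.6 (−2.08, SE 0.28, edgeR adjusted p = 6.2e-05), and Fos and Junb had log2 fold changes of −1.78 and −0.65 (edgeR adjusted p = 0.011 and 0.04), neither of which was called against the WT–mCherry populations. Without WT–emiRFP replicate 1 Fos had −0.96 (edgeR adjusted p = 0.0708), and in the fit of all 69 libraries −1.79 (edgeR adjusted p = 0.137). Junb was not called in DESeq2 (adjusted p = 0.0694) or without any 1 of 4 libraries (edgeR adjusted p = 0.0861 to 0.147). The heat shock gene Hsph1 was higher, with 14960, 16340 and 16560 against 10730, 12340 and 12000 (0.45, edgeR adjusted p = 0.00046), and was not called against WT–mCherry cells beside WT cells (0.20, edgeR adjusted p = 0.056). Other heat shock genes, Hspa1a, Hspa1b and Dnajb1, overlapped between groups. The part of tissue dissociation in the result for Jun was not tested.

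Among genes that met the minimum level, Usp26, the gene of a deubiquitinase, had the largest rise, with 972.2, 784.3 and 1550 normalized counts against 208.5, 231.9 and 387.2 (log2 fold change 1.99, SE 0.24, edgeR adjusted p = 1.9e-05). Serpinf1, a secreted serpin gene, had 280.3, 233.9 and 199.4 against 85.34, 80.02 and 65.44 (1.63, SE 0.14, edgeR adjusted p = 7e-07). Dmrt1, a gonadal transcription factor gene, had 1749, 1746 and 1598 against 557.2, 657.4 and 476.6 (1.59, SE 0.14, edgeR adjusted p = 5.1e-07). All p53KO libraries lay above all WT libraries for these 3 genes. The receptor tyrosine kinase gene Ntrk2, Miip, Hoxb9, the guanine exchange factor gene Rasgrp2 and the peptide hormone gene Adm2 followed with 1.499, 1.41, 1.35, 1.32 and 1.29. The rises of Miip and Ntrk2 were smaller against WT–mCherry cells (0.78 and 0.51 for Miip, 0.98 and 0.87 for Ntrk2).

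The levels of Grb10 and Mest, both imprinted genes, set the emiRFP populations apart from the WT–mCherry populations. Grb10, a growth factor receptor adaptor, had 16790, 16610 and 18010 normalized counts in the p53KO cells, 10380, 10920 and 11360 in WT–emiRFP cells and 1553 to 1966 in WT–mCherry cells. Its log2 fold change was 0.65 against WT–emiRFP cells (SE 0.052, edgeR adjusted p = 2.1e-07) and 3.42 and 3.17 against the WT–mCherry populations. Mest went the other way, with 256.5 to 441.6 in both emiRFP populations and 4290 to 5094 in WT–mCherry cells. The log2 fold change of Mest was −0.43 between the emiRFP populations (edgeR adjusted p = 0.0078). Peg3, another imprinted gene, was not called (0.02, edgeR adjusted p = 0.94).

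The same 2 populations were sequenced at 48 and 96 h, in libraries that share none with 72 h, and were used to ask whether the difference at 72 h was like that before and after. Time and exposure to CHIR99021 cannot be told apart in the step from 48 to 72 h. The change of the log2 fold change was tested over 19287 genes with 36 libraries. Between 48 and 72 h it was called for 623 genes (3.23%), of which 252 rose and 371 fell, and for 140 with an absolute size of at least 1. Between 72 and 96 h it was called for 3245 genes (16.8%), 1609 upwards and 1636 downwards, and for 591 with a size of at least 1. With the replicate block the counts were 2183 and 5836. Without replicates 1, 2 and 3 in turn, they were 100, 206 and 369 for the earlier step and 1157, 1852 and 2408 for the later one. With TMM normalization the later step had 2034 upwards and 1198 downwards. Of the 5147 genes called at 72 h, 2467 (47.9%) were called in the same direction at 48 h, which is 66.3% of the 3720 called then, and 1944 (37.8%) at 96 h, or 44.6% of 4360. A further 28 were called in the opposite direction at 48 h and 236 at 96 h.

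Trp53 itself had nearly the same difference at each time: its log2 fold change was −3.14, −3.21 and −3.23 at 48, 72 and 96 h (edgeR adjusted p for the changes 0.79 and 0.94). Cdkn1a had the largest change among the listed p53 targets named here. At 48 h it had 89.2 ± 19.7 normalized counts in p53KO cells, and WT–emiRFP cells had 2659 ± 34 (SD, n = 3 each). The log2 fold change was −4.90. At 72 h the means were 6135 ± 335 and 15930 ± 847 (SD, n = 3 each), and at 96 h 2182 ± 326 and 5971 ± 245 (SD, n = 3 each). The difference shrank by 3.53 on the log2 scale from 48 to 72 h (SE 0.15, edgeR adjusted p = 2.5e-17) and changed by −0.08 from 72 to 96 h (edgeR adjusted p = 0.73). Both populations had more Cdkn1a transcript at 72 h than at 48 h, the knockout included. Ccng1 had a log2 fold change of −4.99 at 48 h, −4.80 at 72 h and −4.40 at 96 h, with changes of 0.19 and 0.40 (edgeR adjusted p = 0.52 and 0.017). Mdm2 was farthest apart at 72 h (−1.25, −1.89 and −1.35), with changes of −0.64 and 0.55 (edgeR adjusted p = 6.9e-05 and 9.5e-05).

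Svop rose in WT–emiRFP cells from 126.3 ± 1.31 normalized counts at 48 h to 1443 ± 102 at 72 h (SD, n = 3 each) and averaged 12.8 and 8.3 in p53KO cells, so the log2 fold change moved by −4.02 (SE 0.42, edgeR adjusted p = 2.3e-07). Tap1, the peptide transporter gene of antigen presentation, had a log2 fold change of −1.48 at 48 h, −3.25 at 72 h and −1.73 at 96 h, so 72 h was the time of largest difference on both sides (edgeR adjusted p = 9.4e-09 and 1.6e-08). Zfp365 had the same course (−3.72, −5.21 and −3.96). Phlda3 went from −5.27 at 72 h to −3.05 at 96 h, as p53KO cells rose from 151.2 ± 8.43 to 650.6 ± 99.3 normalized counts (SD, n = 3 each; edgeR adjusted p = 3e-09 for the change).

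Of the 12 genes of the integrated stress response list, 6 had a called change of the log2 fold change from 48 to 72 h, against 3.23% of all genes. All 6 were upwards, and Sesn2 and Ppp1r15a were among those not called. From 72 to 96 h 1 member rose and 2 fell, where 16.8% of all genes were called. Chac1 had 1856 ± 305 normalized counts in p53KO cells against 1792 ± 255 in WT–emiRFP cells at 48 h, against 2168 ± 168 and 686.9 ± 108 at 72 h (SD, n = 3 each). Trib3 had 2743 ± 333 and 2786 ± 253 at 48 h, against 2615 ± 170 and 1147 ± 146 at 72 h (SD, n = 3 each). The values were nearly equal at 48 h, and at 72 h those of WT–emiRFP cells were far lower while those of p53KO cells lay near the earlier ones. The change of the log2 fold change was 1.61 for Chac1 and 1.21 for Trib3 (edgeR adjusted p = 0.00057 and 0.00079). For Chac1 and Trib3 the later changes were −0.04 and 0.23 (edgeR adjusted p = 0.96 and 0.56), and that of Trib3 was called with the replicate block (adjusted p = 0.038). Pmaip1 had a log2 fold change of 0.16 at 48 h, 1.02 at 72 h and 1.35 at 96 h (change to 72 h 0.85, edgeR adjusted p = 1.3e-06).

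**Figure D5:**
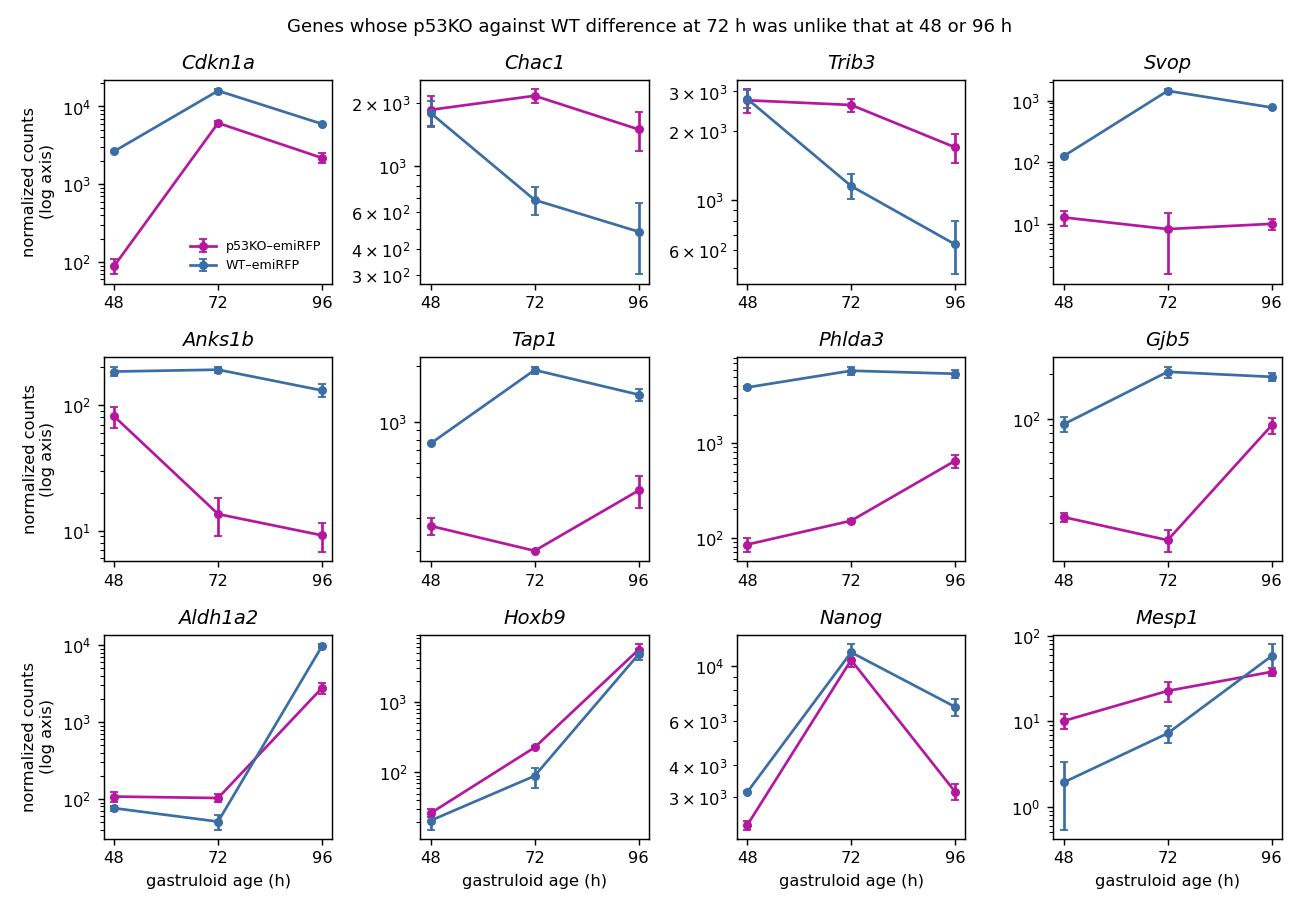
Normalized counts (log axis, mean ± SD, n = 3 per point) of 12 genes in p53KO–emiRFP and WT–emiRFP cells at 48, 72 and 96 h. Cdkn1a lies at 89.2 and 2659 at 48 h and at 6135 and 15930 at 72 h, Chac1 and Trib3 are nearly equal at 48 h and apart from 72 h on, and Aldh1a2 turns from higher to lower in p53KO cells by 96 h.

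Several developmental genes were higher in p53KO cells at 72 h and had a difference of the other sign, or near 0, at 96 h. Mesp1 went from a log2 fold change of 1.61 to −0.59 (change −2.21, SE 0.45, edgeR adjusted p = 0.00078) and Eomes from 0.87 to −0.34 (change −1.21, edgeR adjusted p = 0.00039). Aldh1a2, the enzyme of retinoic acid synthesis, had 103 ± 12.6 normalized counts in p53KO cells and 50.8 ± 10.7 in WT–emiRFP cells at 72 h, and 2788 ± 467 and 9762 ± 603 at 96 h (SD, n = 3 each), a change of −2.83 (SE 0.24, edgeR adjusted p = 1.7e-09). Its difference at 72 h was not called against WT–mCherry cells beside WT cells (0.28, edgeR adjusted p = 0.26). Hoxb9 had 225.9 ± 9.01 and 89.0 ± 28.2 at 72 h and 5539 ± 1120 and 4752 ± 858 at 96 h (SD, n = 3 each), so the difference shrank from 1.35 to 0.22 (edgeR adjusted p = 0.0061 for the change). Nanog, not called at 72 h, was lower in p53KO cells at 96 h, with 3140 ± 242 against 6863 ± 532 (SD, n = 3 each; edgeR adjusted p = 8.8e-14), a change of −1.03 (SE 0.10, edgeR adjusted p = 2e-08). Myc went from 0.67 to −0.52 (change −1.18, SE 0.12, edgeR adjusted p = 2.4e-08). T changed the other way, from −0.27 to 0.81 (change 1.08, SE 0.14, edgeR adjusted p = 1.9e-06).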

How the data were processed

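RNA-seq was measured in cells sorted from mosaic gastruloids of E14tg2A mES cells. The deposited values are raw gene counts per library, made by the authors with Trim Galore 0.6.7 and STAR 2.7.11b on GRCm38.p6 per the submitters' processing notes. Reads were trimmed at a Phred score of 20. Which strand column was counted is not given in the sources used here, so genes whose exons overlap a gene on the other strand carry that uncertainty. Besides those named with the results, these are Rasgrp2, Plk3, Bid, Fancc, Tsc2, Tbx3, Pou5f1, Dnmt3a, Notum, Axin2, Zic1, Ccnd1, Ccnd2, Bop1, Ddit3, Ppp1r15a, Junb, Gapdh, Hspa1a, Sox17, Dglucy, Kbtbd11, Igf2, Fn1 and Pcdh19. Exons of Bax, Top2a and Igf2 also overlap a gene on the same strand (Gm45808, Gm23451 and Gm49394). The effect of such overlaps on the counts was not tested.

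Counts of 55367 gene symbols were analysed in R 4.3.3 with edgeR 4.0.16. Normalized counts are counts divided by median-of-ratios size factors over all 69 libraries, the normalization that the authors state. Genes were kept by filterByExpr. The quasi-likelihood test was fitted on the 12 libraries of 72 h, and changes of the difference between times on 36 libraries of 48, 72 and 96 h, with Benjamini-Hochberg adjustment over all tested genes and a threshold of 0.05. The biological coefficient of variation was 0.078 at 72 h. With 44049258 to 62464271 counts per library, genes with few counts carry the largest relative error. The 3 replicates per group came from independent experiments. Same-numbered p53KO and WT–emiRFP libraries deviated from their group means together (r = 0.464, 0.425 and 0.581 over genes with a mean count of 50 or more), so replicate numbers were taken as paired, and values with the replicate as a block are given where they alter a call or move a count by more than 1.5 times.

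Genes named are Trp53, up to 10 largest rises and falls among genes whose mean log2 CPM reached 1 and whose 3 pairs shared a direction, up to 4 called and 2 uncalled members of each list, the 5 smallest p, and up to 4 genes each way with the largest change between times. Other list members named, and Aars, Iars and H2bc14, were chosen after their values were seen. The comparison and the gene lists were chosen with earlier results of these data known. Lists are described by counts and medians with no test.

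Alternatives were TMM normalization, no filter on low counts, all 69 libraries, only the 6 libraries, a replicate block, DESeq2 1.42.0, an absolute log2 fold change of at least 1, leaving out each replicate, and each WT–mCherry population as the control. Gene positions came from the GENCODE annotation of GRCm38, and promoter and microRNA sequences from RefSeq. Some list members are not reported here.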

Additional observations from a re-analysis of the deposited data

Results flagged for a closer look

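For the genes named, the change of the p53KO–emiRFP against WT–emiRFP difference between neighbouring times was tested by edgeR's quasi-likelihood test as a difference of differences. The genes given here had a called change of at least 1 on the log2 scale. Each value is the later log2 fold change minus the earlier one, so a negative value means that p53KO cells moved down relative to WT–emiRFP cells.

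From 48 to 72 h, among p53 targets and other genes lower at 72 h, the change was −4.02 for Svop, −2.18 for Zfp750, −1.73 for Dscaml1, −1.49 for Zfp365 and −1.005 for Cpt1c. It was −2.64 for Anks1b (a postsynaptic scaffold gene), −1.76 for Tap1, −1.67 for Gjb5 (a connexin gene), −1.28 for Tek and −1.09 for Cldn4. In the naive pluripotency list it was −1.68 for Prdm14, −1.10 for Nr0b1 and −1.43 for Tcl1, of which Prdm14 went from a log2 fold change of 0.67 at 48 h to −1.01 and Tcl1 from 0.72 to −0.71. Upward changes were 3.53 for Cdkn1a, 1.76 for Kbtbd11, 1.63 for Fut1 (a fucosyltransferase gene), 1.61 for Chac1, 1.21 for Trib3 and 1.09 for Ntrk2. The adjusted p of Zfp750 was 0.047 in edgeR and those of the other genes were 0.01 or lower.

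From 72 to 96 h, the difference of 4 listed p53 targets shrank, with changes of 2.22 for Phlda3, 1.31 for Dglucy, 1.26 for Btg2 and 1.05 for Perp. It also shrank for Zfp750 (1.85), Ptprv (1.70), Zfp365 (1.25), Inka2 (1.16), Gjb5 (2.66), Scn4b (2.52), Gm53 (2.01) and Tap1 (1.52). Scn4b, a sodium channel subunit gene, had 15.5 ± 3.1 normalized counts in p53KO cells and 117 ± 31.9 in WT–emiRFP cells at 72 h, and 204.1 ± 21.3 and 267.7 ± 83.8 at 96 h (SD, n = 3 each). T changed by 1.08.

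Among genes higher in p53KO cells at 72 h, the change was −1.33 for Serpinf1, −1.28 for Dmrt1, −1.15 for Dppa3, −1.18 for Myc, −1.21 for Eomes and −2.21 for Mesp1. The Hox genes Hoxb9, Hoxd9 and Hoxc8 changed by −1.13, −2.57 and −2.48. Hoxd9 went from 62.2 ± 8.86 against 13.9 ± 6.81 normalized counts at 72 h to 933 ± 231 against 1218 ± 398 at 96 h (SD, n = 3 each). Genes of retinoic acid turnover changed by −2.83 (Aldh1a2) and −1.92 (Cyp26a1), the imprinted genes Igf2 and Dlk1 by −2.13 and −1.20, and the adhesion genes Pcdh19, Cdh11 and Fn1 by −2.20, −1.69 and −1.10. In the naive list Nr0b1, Tcl1 and Nanog changed by −1.09, −1.24 and −1.03. The adjusted p was 0.032 for Hoxc8, 0.031 for Zfp750 and 0.015 or lower for the rest in edgeR. The 72 h differences of Igf2 and Pcdh19 themselves were not called in several alternatives, and that of Hoxc8 was not called without WT replicate 2 (log2 fold change 1.81, adjusted p = 0.0506).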

How the results depend on the processing

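The count of 5147 genes at 72 h was 4956 with TMM normalization, 5265 with no filter on low counts, 5088 with all 69 libraries, 4444 with only the 6 libraries, 5036 with DESeq2, 6900 with the replicate block and 3917 to 4876 without 1 replicate. With a minimum absolute log2 fold change of 1, the counts were 822 at 72 h, 140 for the change from 48 to 72 h and 591 for that from 72 to 96 h. For these changes the replicate block gave 2183 and 5836 genes in place of 623 and 3245, the fit of all 69 libraries gave 372 for the earlier change, and leaving out 1 replicate, an alternative chosen after seeing the data, gave 100 to 369 and 1157 to 2408. Of 129 named genes called at 72 h, 105 were called in every alternative that kept WT–emiRFP cells as the control, other than the minimum fold change, which was applied to counts only, 24 were lost in at least 1 and 0 turned direction; the block added 14 calls and removed 0. With WT–mCherry cells beside WT as the control the log2 fold change turned for Cdkn2a (0.47), Bmf (0.10), Gdf3 (−0.32), Ccnd1 (−0.063), Msx2 (−0.025), Etv5 (−0.17), Gata4 (0.38), Ldha (−0.013) and Peg3 (−0.53), and with those beside p53KO for Cdkn2a (0.56), Gata4 (0.11), Ddit3 (−0.42), Ldha (−0.071) and Peg3 (−0.49). Of 27 list medians at 72 h, 7 moved by more than their SD over replicate pairs without WT–emiRFP replicate 3, and 0 to 4 in each other alternative with WT–emiRFP cells as the control. The primitive streak median of 0.26 was 0.05 without p53KO replicate 1 and 0.12 and 0.15 without WT–emiRFP replicates 2 and 3. Without WT–emiRFP replicate 3 the formative median of 0.15 was −0.01 and the Wnt median of −0.04 was 0.03. The neural median of −0.09 was 0.13 to 0.25 in 5 alternatives. The cause was not tested for any of these. Genes with few counts, such as those of the two-cell-like list, are limited by depth.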

Other observations

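Gene families outside the lists were also counted at 72 h. They were gathered by symbol after values had been seen, from 10 families and 20 chromosomes looked at, and are given as counts with no test, beside 13.4% higher and 15.7% lower over all tested genes. Of 28 tested Hox genes, which set position along the body axis, 15 were higher in p53KO–emiRFP cells and 1 lower, with a median log2 fold change of 1.04. The median was 0.45 for 10 genes of paralogue groups 1 to 4, 1.23 for 10 of groups 5 to 8 and 1.37 for 8 of groups 9 to 13. Hoxb9 is the example above (log2 fold change 1.35), and by 96 h its difference was 0.22.

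Of 16 aminoacyl-tRNA synthetase genes, which charge tRNAs for translation and are targets of Atf4, 15 were higher and 0 lower (median 0.41). Aars had a log2 fold change of 0.54 and Iars of 0.45. Of 40 proteasome subunit genes 22 were higher and 1 lower (median 0.18). Of 85 ribosomal protein genes 1 was higher, 11 lower and 73 not called (median −0.14). Of 11 genes encoded by mitochondrial DNA 0 were called. The other 5 families had 39 higher and 57 lower of 269 solute carriers (Slc), 7 and 2 of 21 genes of the H2 complex, 1 and 3 of 12 keratins, 0 and 2 of 11 claudins, and 0 and 2 of 5 Prame and Pramel genes.

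The histone gene H2bc14, chosen after its values were seen, had 7459 to 8453 normalized counts in p53KO–emiRFP cells, 8305 to 10390 in WT–emiRFP cells and 41.08 to 162.3 in both WT–mCherry populations. All clones carry an H2B reporter, with emiRFP670 or mCherry. Whether reads of a reporter were counted at this gene was not tested.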
